A study of Mus musculus with 46 samples.

Results

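T cell receptor beta (TCRβ) sequences shared between pairs of libraries were counted for regulatory T cells (Treg, CD4+Foxp3+) and conventional T cells (Tcon, CD4+Foxp3-). The comparison used every pair of Treg libraries and every pair of Tcon libraries, which took in 11 of the 17 libraries analysed, out of 46 samples that the labels list: 7 Treg libraries gave 21 pairs and 4 Tcon libraries gave 6 pairs. The 28 mixed pairs of 1 Treg and 1 Tcon library were set beside them. Rearrangements with the same V segment and the same translated CDR3 were summed into 1 clonotype, and the 2000 clonotypes with most reads were taken from each library. A shared clonotype whose nucleotide sequences were all different in the libraries of a pair was counted as shared with no common nucleotide sequence.

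All 11 libraries were made from genomic DNA of spleen and lymph node cells of DEREG mice, which carry a diphtheria toxin receptor and a green fluorescent protein under the control of Foxp3 regulatory sequence. Of the Treg libraries, 5 came from pregnant mice with experimental autoimmune encephalomyelitis (EAE, a model of multiple sclerosis) at embryonic day 18 (E18), 1 from non-pregnant mice with EAE and 1 from naive non-pregnant mice. The Tcon libraries were 1 each from pregnant (E18) and non-pregnant mice with EAE and from pregnant (E18) and non-pregnant naive mice. The labels do not say how cells were sorted or whether replicates came from separate mice, so p-values measure only the spread between these samples. Foxp3, which defines the Treg lineage, cannot be read from rearranged TCR DNA, so the cell type rests on the labels. All Treg tables carry 1 name prefix and all Tcon tables another, so whatever that prefix stands for and the cell type cannot be told apart. Of the 21 Treg pairs 10 joined libraries of the same condition, against 0 of the 6 Tcon pairs.

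A TCRβ chain is assembled in the thymus by joining a V, a D and a J segment, and the CDR3 loop spans that joint and touches the antigenic peptide. Exonucleases trim the segment ends and terminal deoxynucleotidyl transferase adds bases with no template, so most CDR3 sequences are rare. Because the genetic code is degenerate, separate rearrangements in different animals can give the same amino acid sequence, which is called convergent recombination, and short sequences with few added bases are known to recur most often. All segments lie in the Trb locus on chromosome 6 (mm10, positions from the GRCm38.p6 annotation), with Trbv1 at chr6:40891296-40891885 as its most distal V segment.

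The nucleotide sequences of the 3 clonotypes found in most libraries of each cell type are printed to show how different nucleotide sequences gave the same loop. Each runs 5′ to 3′ on the coding strand as deposited, with bases assigned to no segment in capitals, and where no D segment was assigned these capitals may hold D bases. The first set lay among the 2000 largest of 4 of the 7 Treg libraries.
TRBV13-2 TRBJ2-7, Treg naive non-preg 3: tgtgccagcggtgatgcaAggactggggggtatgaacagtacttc
TRBV13-2 TRBJ2-7, Treg EAE E18 3: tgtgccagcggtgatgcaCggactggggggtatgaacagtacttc
TRBV13-2 TRBJ2-7, Treg EAE E18 1: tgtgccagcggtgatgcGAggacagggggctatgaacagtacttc
TRBV13-2 TRBJ2-7, Treg EAE E18 2: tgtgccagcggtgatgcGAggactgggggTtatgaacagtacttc
TRBV13-2 TRBJ1-3, Treg EAE E18 1: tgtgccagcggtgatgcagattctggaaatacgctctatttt
TRBV13-2 TRBJ1-3, Treg EAE E18 3 and Treg EAE E18 4: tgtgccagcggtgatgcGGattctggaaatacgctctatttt
TRBV13-2 TRBJ1-3, Treg naive non-preg 3: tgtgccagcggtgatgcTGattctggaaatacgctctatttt
TRBV16 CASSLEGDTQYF, Treg EAE E18 1 and Treg EAE E18 3: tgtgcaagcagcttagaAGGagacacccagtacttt
TRBV16 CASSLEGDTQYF, Treg EAE E18 2 and Treg naive non-preg 3: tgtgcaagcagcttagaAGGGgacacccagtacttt

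The second set lay among the 2000 largest of 3 of the 4 Tcon libraries, and libraries that held a printed sequence at any rank are named beside it.
TRBV1 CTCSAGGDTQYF, Tcon naive E18 2: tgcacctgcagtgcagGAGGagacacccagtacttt
TRBV1 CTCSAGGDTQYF, Tcon naive non-preg 1: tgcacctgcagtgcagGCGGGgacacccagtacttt
TRBV1 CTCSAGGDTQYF, Tcon naive E18 2: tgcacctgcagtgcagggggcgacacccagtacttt
TRBV1 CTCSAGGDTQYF, Tcon EAE non-preg 2: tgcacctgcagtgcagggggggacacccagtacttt
TRBV1 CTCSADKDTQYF, Tcon naive E18 2: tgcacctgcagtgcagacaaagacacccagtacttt
TRBV1 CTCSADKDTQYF, Tcon EAE E18 5 and Tcon naive non-preg 1: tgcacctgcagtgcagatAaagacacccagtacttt
TRBV13-2 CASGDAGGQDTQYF, Tcon naive non-preg 1: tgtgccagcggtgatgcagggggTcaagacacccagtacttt
TRBV13-2 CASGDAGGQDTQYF, Tcon EAE non-preg 2: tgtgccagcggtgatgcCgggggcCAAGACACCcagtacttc
TRBV13-2 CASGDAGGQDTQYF, Tcon EAE non-preg 2: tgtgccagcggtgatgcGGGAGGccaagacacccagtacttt
TRBV13-2 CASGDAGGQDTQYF, Tcon EAE non-preg 2 and Tcon naive E18 2: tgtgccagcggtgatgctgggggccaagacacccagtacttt
TRBV13-2 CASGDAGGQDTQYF, Tcon naive non-preg 1: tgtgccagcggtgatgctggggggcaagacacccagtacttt
TRBV13-2 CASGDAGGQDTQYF, Tcon EAE E18 5 and Tcon naive E18 2: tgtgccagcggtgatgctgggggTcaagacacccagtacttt

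The 4 sequences of the TRBV13-2 TRBJ2-7 clonotype, which is 15 amino acids long, lay in 4 different Treg libraries and held 1 to 3 inserted bases. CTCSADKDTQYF was read from 2 sequences, with 0 inserted bases in the naive E18 Tcon library and 1 in the other libraries that held it. One low-read sequence of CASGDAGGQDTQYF was assigned TRBJ2-7, which left 10 bases counted as inserted.

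Totals ranged from 278420 to 571124 reads in Treg libraries and from 366714 to 406536 reads in Tcon libraries. After rearrangements that looked carried over from another library were left out, Treg libraries held 3700 to 15009 clonotypes and Tcon libraries 7930 to 18683. The 2000 largest were therefore 13.3% to 54.1% of the clonotypes of a Treg library and 10.7% to 25.2% of those of a Tcon library. The last clonotype taken had 7 to 80 reads in Treg libraries and 47 to 54 in Tcon libraries. How many cells each library was made from is not known.

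Treg pairs shared 24.2 ± 5.2 clonotypes (SD over 21 pairs, range 16 to 36) and Tcon pairs 35.8 ± 6.3 (6 pairs, range 26 to 44), a difference of -11.6 per pair. Because pairs share libraries, the cell type labels of the 11 libraries were permuted in an exact two-sided test over all 330 assignments, which can give no p below 0.00303. For all shared clonotypes p was 0.0242, and 0.0970 after Benjamini-Hochberg adjustment over 8 results, so this difference did not pass the threshold. Treg and Tcon pairs overlapped: 7 of the 21 Treg pairs lay at or above the lowest Tcon pair.

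With no common nucleotide sequence, Treg pairs shared 17.3 ± 3.9 clonotypes (range 11 to 26) and Tcon pairs 24.8 ± 5.3 (range 17 to 33). This difference of -7.55 per pair had the smallest p that the exact permutation test allows (0.00303, adjusted 0.0242), and it was the only one of the 8 results to pass. The values still overlapped, with 13 of 21 Treg pairs at or above the lowest Tcon pair. Without the naive non-pregnant Tcon library the difference was -4.38 (exact permutation p = 0.142), and that for all shared clonotypes was -6.76 (p = 0.233). Without any other 1 library it was -10.4 to -6.57. The adjusted p was under 0.05 in 3 of the 11 fits that left out 1 library, but with a Tcon library left out the smallest possible p is 0.00833, which alone gives an adjusted p of 0.0667. Within conditions, with the naive E18 Tcon library left out because it had no Treg counterpart, the difference was -7.05 with an exact permutation p of 0.0417, the smallest that 24 assignments allow, and an adjusted p of 0.167. Over pairs of different conditions only it was -7.47 (exact permutation p = 0.0127, adjusted 0.0635).

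**Figure D1:**
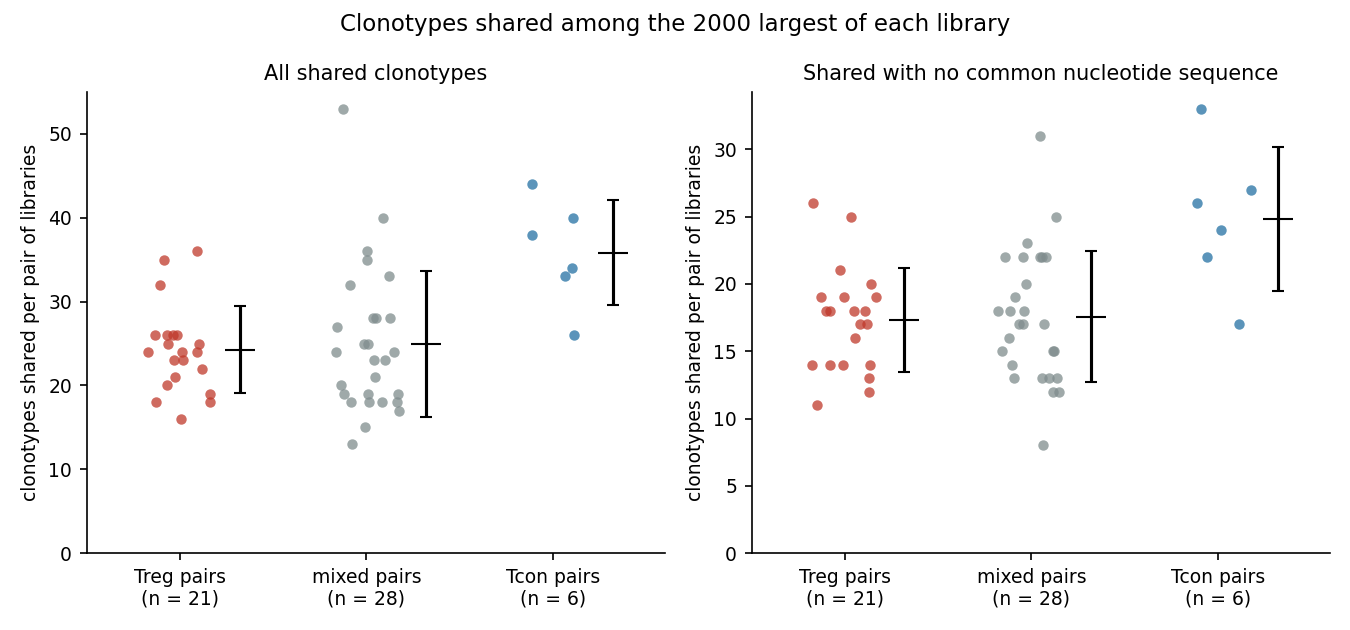
Each point is 1 pair of libraries, with the number of clonotypes it shared among the 2000 largest of each on the vertical axis and the mean and SD over pairs beside the points. Treg pairs had 16 to 36 shared clonotypes and Tcon pairs 26 to 44, and for those with no common nucleotide sequence 11 to 26 and 17 to 33, so both panels overlap.

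Neither count passed the test between Treg and mixed pairs. Mixed pairs shared 25.0 ± 8.7 clonotypes and 17.6 ± 4.9 with no common nucleotide sequence (28 pairs), and Treg minus mixed was -0.73 (exact permutation p = 0.773) and -0.29 (p = 0.882). All 4 Tcon libraries shared more clonotypes with no common nucleotide sequence with Tcon partners (means of 22 to 28) than with Treg partners (16.3 to 18.3). Among Treg libraries, 4 of 7 shared more with Tcon partners than with Treg partners. For comparison, the 3 pairs of libraries from spleen and lymph nodes of wild-type EAE mice, labelled CD8-T cells, shared 30.7 ± 1.2 clonotypes, 22.3 ± 3.1 of them with no common nucleotide sequence. Pairs of a Treg library with one of these shared 23.3 ± 6.1 and 17.2 ± 5.9 (21 pairs), and pairs of a Tcon library with one of these 25.3 ± 5.5 and 17.8 ± 5.1 (12 pairs). These tables carry a name prefix that differs from those of the Treg and Tcon tables, and on average their pairs shared more than pairs across prefixes. Treg pairs, which also lie within 1 prefix, shared 24.2 and 17.3, against 25.0 and 17.6 in mixed pairs. The part of the prefix was not tested.

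**Figure D2:**
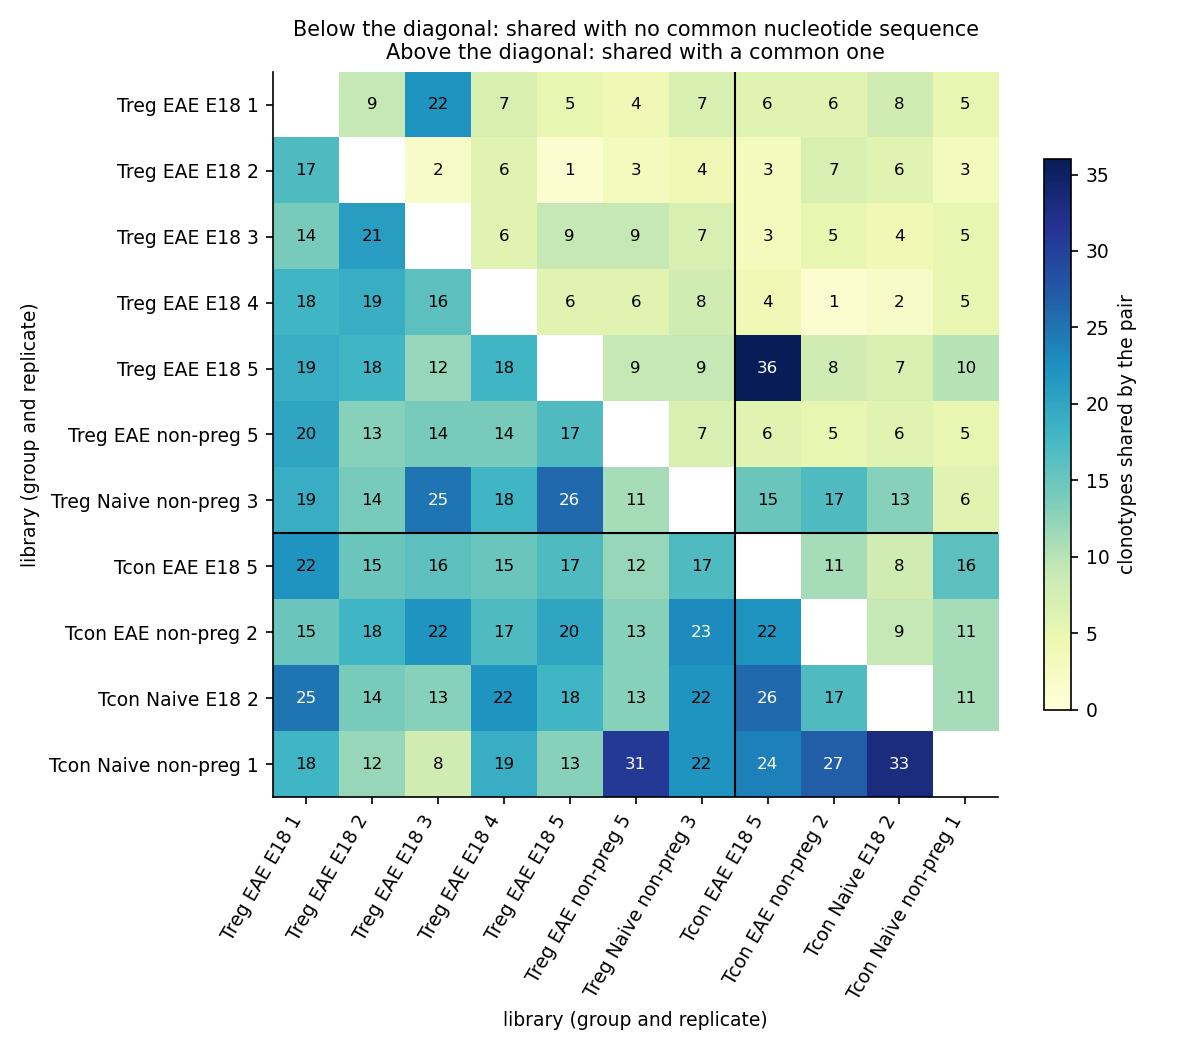
Counts for every pair of the 11 libraries, with those sharing no common nucleotide sequence below the diagonal and those sharing one above it. The black lines separate Treg from Tcon libraries. Among counts with a common sequence, the pair of the EAE E18 libraries numbered 5 stands out at 36.

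Clonotypes shared through an identical nucleotide sequence numbered 6.95 ± 4.2 per Treg pair and 11.0 ± 2.8 per Tcon pair, and this difference was not tested. The highest count of any pair was a mixed one, between the EAE E18 Treg library and the EAE E18 Tcon library that both carry replicate number 5, with 36 of its 53 shared clonotypes identical at the nucleotide level. Of those 36, 17 held at least 3 inserted bases, and 21 were at a higher percentage of reads in the Treg library. The labels do not say that libraries with the same number came from the same mouse. Among Treg pairs the highest count was 22 of 36, between EAE E18 replicates 1 and 3, where 12 of the 22 held at least 3 inserted bases. The share of shared clonotypes with no common nucleotide sequence was 72.2% ± 12.1 in Treg pairs and 69.1% ± 6.3 in Tcon pairs (exact permutation p = 0.633).

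The clonotypes shared with no common nucleotide sequence had fewer inserted bases than the unshared ones in every pair of both cell types. They held a mean of 1.78 ± 0.28 inserted bases in Treg pairs, against 2.83 ± 0.04 in unshared clonotypes of the same pairs, and the difference was below 0 in 21 of 21 pairs. In Tcon pairs the means were 1.78 ± 0.21 and 2.88 ± 0.03, below 0 in 6 of 6 pairs. Where no D segment was assigned, all bases between V and J counted as inserted, and such clonotypes were not equally frequent. They made up 39.9% of the shared and 30.8% of the unshared clonotypes in Treg pairs, and 47.9% and 32.7% in Tcon pairs. Those with 0 inserted bases made up 31.3% of the shared and 17.6% of the unshared clonotypes in Treg pairs, and 30.1% and 16.8% in Tcon pairs. CDR3 loops were shorter by 0.44 amino acids on average in Treg pairs (18 of 21 pairs) and in Tcon pairs (6 of 6). Clonotypes read from more than 1 nucleotide sequence within a library were 11.8% of the shared and 5.01% of the unshared in Treg pairs, and 18.7% and 6.28% in Tcon pairs. These are descriptions of the selected clonotypes and were not tested.

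Between the cell types, mean inserted bases were 1.78 ± 0.28 in Treg pairs and 1.78 ± 0.21 in Tcon pairs (exact permutation p = 1) and CDR3 length was 13.21 ± 0.41 amino acids in Treg pairs and 13.25 ± 0.27 in Tcon pairs (p = 0.858). Shared clonotypes held 1.57% ± 0.86 of the reads in Treg pairs and 1.32% ± 0.31 in Tcon pairs (exact permutation p = 0.645). Without the carry-over filter these shares were 4.21% in Treg pairs and 1.33% in Tcon pairs, with a difference of 2.88 (exact permutation p = 0.264). A p above the threshold does not show that the cell types were alike.

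**Figure D3:**
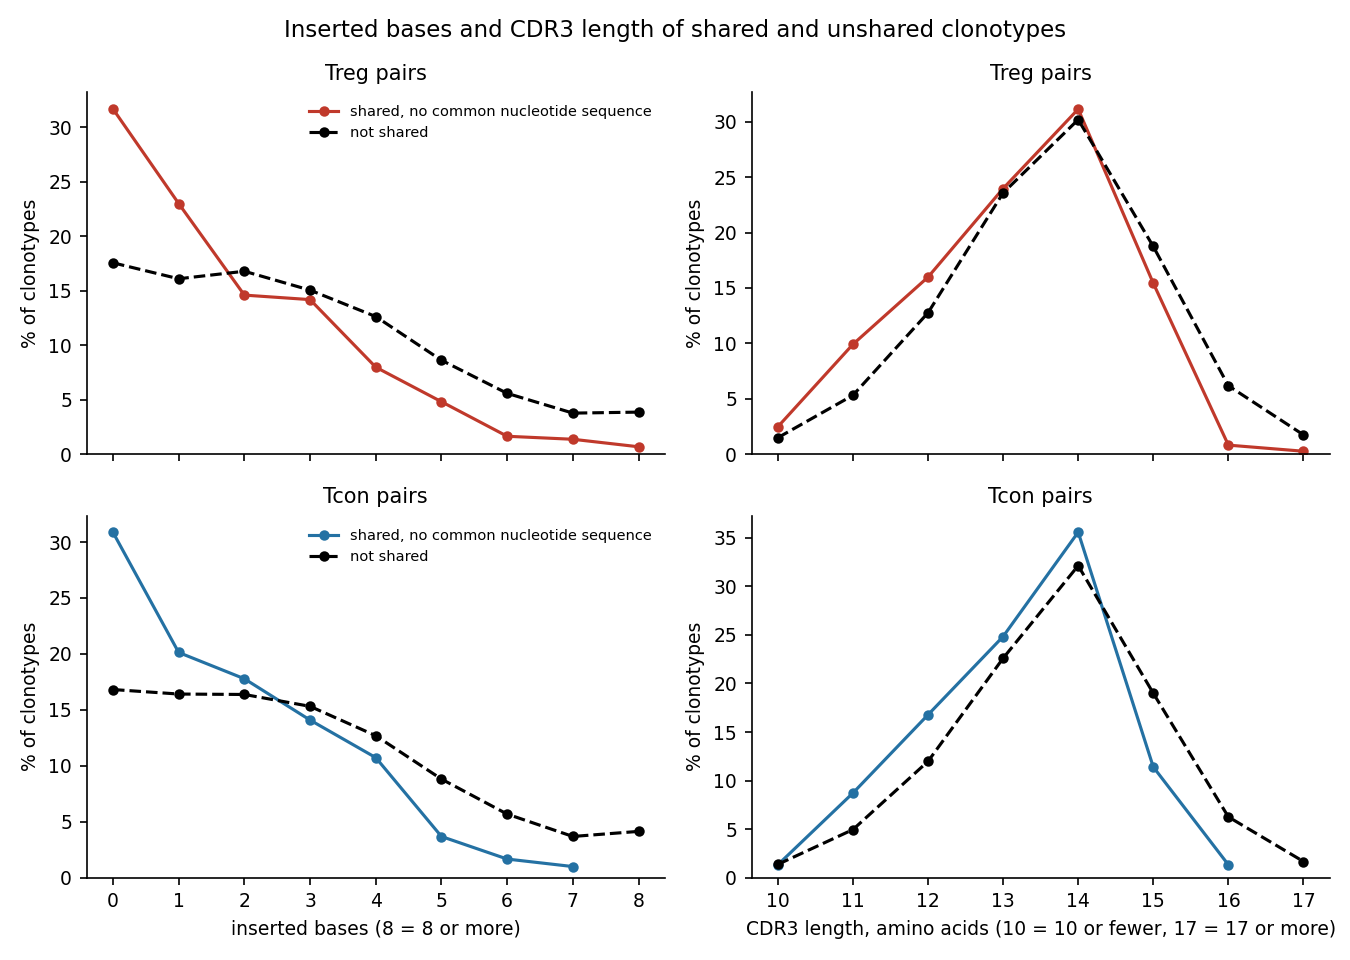
Percentage of clonotypes by inserted bases (left) and by CDR3 length in amino acids (right), for Treg pairs (top) and Tcon pairs (bottom), with a solid line for those shared with no common nucleotide sequence and a dashed line for unshared ones. The solid lines lie above the dashed ones at 0 inserted bases, where Treg pairs had 31.7% and 17.6% with all pairs pooled.

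V and J segments of the shared clonotypes were then compared, a comparison added after the values were seen. Of 29 segments tested, 2 had an adjusted p under 0.05 (6.9% of those tested) and 5 an unadjusted p under 0.05 (17.2%). TRBV1 clonotypes shared with no common nucleotide sequence numbered 1.10 ± 0.83 per Treg pair (0 to 3) and 7.5 ± 2.9 per Tcon pair (4 to 11), a difference of -6.40 with an exact permutation p of 0.00303 (adjusted over the 29 segments, 0.0439). The Treg and Tcon pairs did not overlap. TRBJ2-5 numbered 4.62 ± 2.69 per Treg pair and 9.83 ± 2.99 per Tcon pair (-5.21, exact permutation p = 0.00303, adjusted 0.0439), and these pairs did overlap. Each clonotype counts under both its V and its J segment. In Tcon pairs 17 of the 59 TRBJ2-5 cases were also TRBV1 cases, so the calls are not separate. TRBV14 and TRBV29 were 0 in all Treg and Tcon pairs and could not be called. TRBV1 was singled out because it showed the widest gap, so its p is not independent support.

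With TRBV1 set aside, Treg pairs shared 16.2 ± 3.9 clonotypes with no common nucleotide sequence and Tcon pairs 17.3 ± 4.3, a difference of -1.14. Setting aside the segment with the widest gap makes the rest smaller by construction. This remainder is therefore a description, and its exact permutation p of 0.548 cannot show that no difference remains. Of the difference of -7.55 per pair, -6.40 came from TRBV1 clonotypes. Without the EAE non-pregnant Tcon library the remainder was -4.48 and the TRBV1 part -5.90 of a difference of -10.4, and without the other libraries 1 at a time the remainder ranged from -1.67 to 0.19. The difference for TRBV1 was negative without any 1 of the 11 libraries (-8.24 to -4.57, each with an unadjusted exact permutation p of at most 0.00833), the smallest in size being without the naive non-pregnant Tcon library. Among the 7 libraries with at least 7000 clonotypes, 3 of them Treg, it was -5.83 (exact permutation p = 0.0857).

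The libraries also differed in how many TRBV1 clonotypes they held, with overlapping values that were not tested. TRBV1 made up 8.64% ± 3.7 of the 2000 largest clonotypes in Treg libraries (5.2% to 14.4%) and 13.8% ± 3.9 in Tcon libraries (8.9% to 18.4%). The Treg libraries were split: those of EAE E18 held 5.2% to 7.85%, the EAE non-pregnant one 13.4% and the naive non-pregnant one 14.4%. Of all clonotypes, TRBV1 made up 6.02% ± 0.48 in Treg libraries (5.57% to 6.86%) and 7.21% ± 0.34 in Tcon libraries (6.73% to 7.46%). The number of TRBV1 clonotype combinations in a pair with the same J segment and CDR3 length was 756 ± 412 in Treg pairs and 2284 ± 753 in Tcon pairs. Over all V segments, such combinations numbered 9347 ± 966 in Treg pairs and 12906 ± 964 in Tcon pairs. Per 1000 of them, clonotypes shared with no common nucleotide sequence numbered 1.86 ± 0.39 in Treg pairs and 1.92 ± 0.34 in Tcon pairs (exact permutation p = 0.724). The part of V segment use and of depth in the TRBV1 difference was not tested. Per 1000 TRBV1 combinations, TRBV1 clonotypes shared with no common nucleotide sequence numbered 1.54 ± 1.21 in Treg pairs (0 to 4.61). In Tcon pairs they numbered 3.50 ± 1.41 (1.82 to 5.16). These values overlapped, rest on few clonotypes a pair and were not tested.

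**Figure D4:**
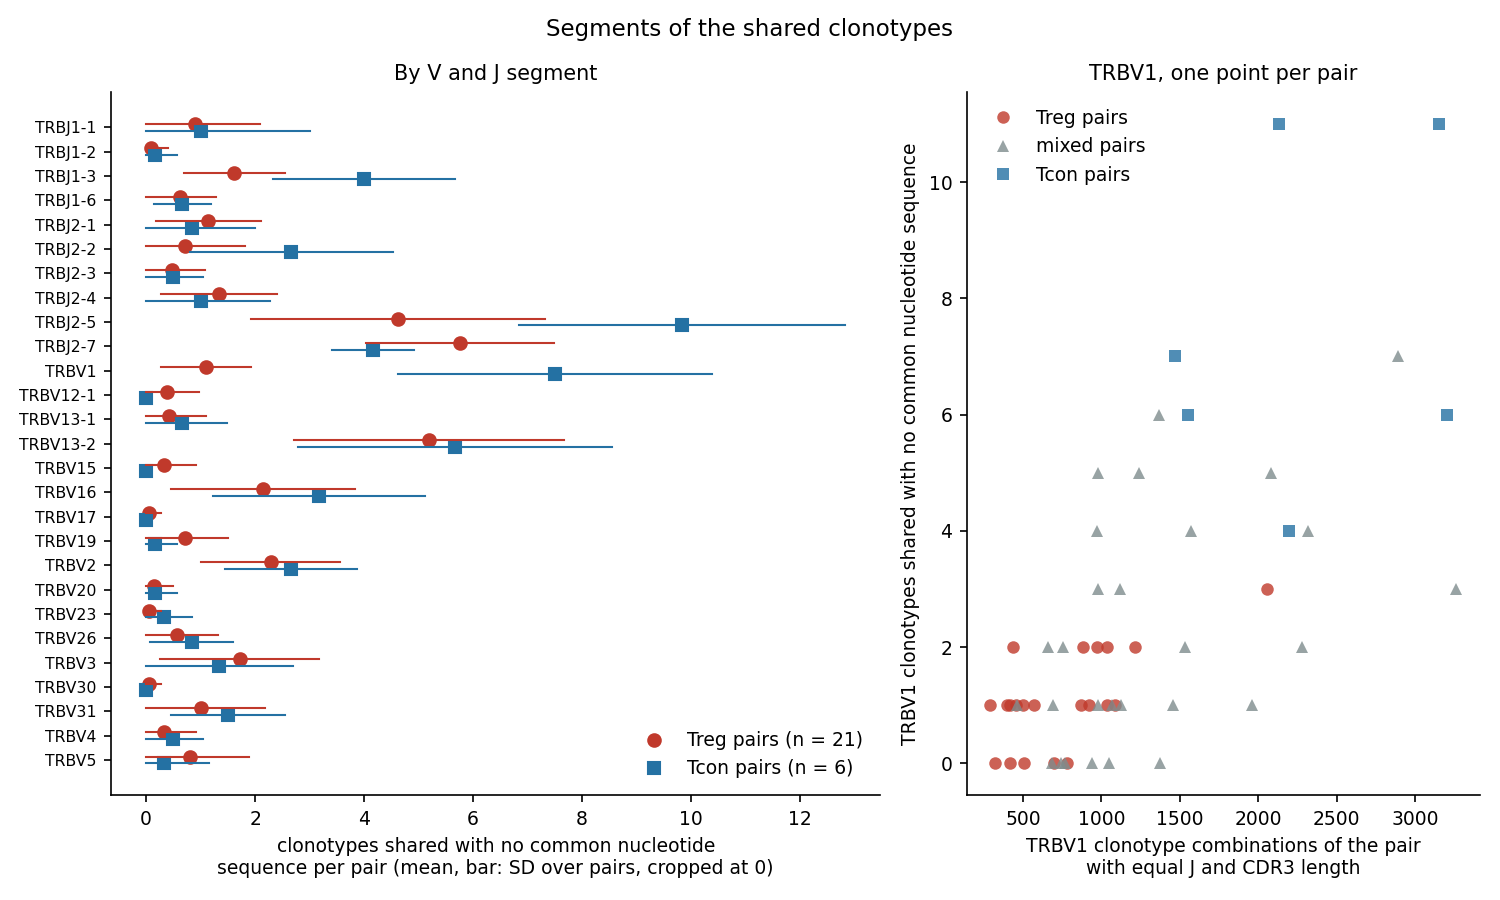
Left, mean number per pair of clonotypes shared with no common nucleotide sequence by V or J segment, with bars of 1 SD over pairs cropped at 0 (segments with no such clonotype are not drawn). Right, the same for TRBV1, 1 point per pair, against the number of TRBV1 clonotype combinations with equal J segment and CDR3 length. Treg pairs lie at 0 to 3 and Tcon pairs at 4 to 11.

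The TRBV1 clonotypes shared by Tcon pairs were 33 different sequences, of which 32 began with CTCSA and 12 ended in DTQYF, the end given by TRBJ2-5. Treg pairs shared 21 TRBV1 sequences, of which 18 began with CTCSA and 4 ended in DTQYF. Among all TRBV1 clonotypes of the 2000 largest, CTCSA began a mean of 74.0% in Tcon libraries and 71.7% in Treg libraries. TRBJ2-5 was the J segment of 24.6% of them in Tcon libraries and 17.1% in Treg libraries. These shares were not tested. Of the 33 from Tcon pairs, 6 lay among the 2000 largest of any Treg library and 12 (36.4%) were found in a Treg library at any rank. Of the 94 clonotypes with other V segments from Tcon pairs, 33 lay among the 2000 largest of a Treg library and 47 (50%) were found there at any rank. Of the 21 TRBV1 clonotypes from Treg pairs, 5 lay among the 2000 largest of a Tcon library and 13 (61.9%) were found there at any rank. Of the 268 clonotypes with other V segments from Treg pairs, 46 lay among the 2000 largest of a Tcon library and 122 (45.5%) were found there at any rank. Clonotypes of Tcon pairs were searched in 7 Treg libraries and those of Treg pairs in 4 Tcon libraries, so their percentages cannot be compared. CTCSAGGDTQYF averaged 0.150% of reads in its 3 Tcon libraries (0.0160% to 0.402%). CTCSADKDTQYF averaged 0.0739% in its 3 Tcon libraries (0.0134% to 0.185%). Natural killer T cells, which in mice favour TRBV13-2, TRBV29 and TRBV1, could lie within a CD4+Foxp3- gate. TRBV29 had 0 clonotypes shared with no common nucleotide sequence in Treg and in Tcon pairs, and TRBV13-2 had 5.19 ± 2.48 per Treg pair and 5.67 ± 2.88 per Tcon pair (exact permutation p = 0.761). The part of such cells in the TRBV1 difference was not tested.

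Over the 21 Treg pairs there were 363 cases of a clonotype shared with no common nucleotide sequence. TRBV13-2, a segment known from myelin-specific T cells, made up 30.0% of them against 15.0% of the unshared clonotypes. TRBJ2-7 made up 33.3% against 20.6%, and TRBV1 6.34% against 8.66%. The most frequent combinations were TRBV13-2 with TRBJ2-7 in 36 cases, TRBV13-2 with TRBJ2-5 in 29, TRBV2 with TRBJ2-7 in 20 and TRBV16 with TRBJ2-7 in 19, followed by TRBV16 with TRBJ2-5 and TRBV2 with TRBJ2-5 at 13 each. In the 149 cases of the 6 Tcon pairs, TRBV1 made up 30.2% against 13.5% of the unshared, TRBV13-2 22.8% against 18.2%, and TRBJ2-5 39.6% against 27.4%. Their most frequent combinations were TRBV1 with TRBJ2-5 in 17 cases, TRBV13-2 with TRBJ2-5 in 14, TRBV1 with TRBJ2-7 in 10, TRBV1 with TRBJ1-3 in 8 and TRBV2 with TRBJ2-5 in 7. Mixed pairs had 492 cases, with TRBV13-2 at 32.1% against 16.6% of the unshared. TRBJ2-7 made up 27.6% against 19.0% there, and TRBV1 13.0% against 11.2%, so a raised share of TRBV13-2 and TRBJ2-7 was not particular to Treg pairs.

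Few clonotypes recurred in more than a pair of libraries. Of 13551 clonotypes among the 2000 largest of the Treg libraries, 338 were in 2 libraries, 51 in 3, 3 in 4 and 0 in more. Of 7804 in the Tcon libraries, 158 were in 2, 19 in 3 and 0 in all 4. In all, 289 different clonotypes were shared with no common nucleotide sequence by at least 1 Treg pair and 127 by at least 1 Tcon pair, and 8 were in both sets, 2.77% of the Treg set and 6.30% of the Tcon set. Of the Treg set 51 clonotypes lay among the 2000 largest of at least 1 Tcon library, and of the Tcon set 39 lay among those of at least 1 Treg library. The Treg set was searched in 4 Tcon libraries and the Tcon set in 7 Treg libraries. The same share over all clonotypes is not given here, so these counts do not show whether the overlap was high or low.

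The TRBV13-2 TRBJ2-7 clonotype printed first averaged 0.0806% of reads over its 4 Treg libraries and ranged from 0.0114% to 0.266%. The TRBV13-2 TRBJ1-3 clonotype printed after it averaged 0.0733% over 4 Treg libraries. Neither was among the 2000 largest of any Tcon library, while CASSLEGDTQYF, at 0.0252% over 4 Treg libraries, was in 2 of the 4. It held 0.0883% of reads in the EAE E18 and 0.115% in the EAE non-pregnant Tcon library, above its highest Treg value of 0.0462%. Among clonotypes in 3 Treg libraries, TRBV13-2 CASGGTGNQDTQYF had the highest mean, 1.17% of reads (0.0810% to 2.86%), in EAE E18 replicates 1, 4 and 5. A TRBV2 TRBJ2-5 clonotype of 15 amino acids averaged 0.403% (0.0142% to 1.16%) and a TRBV1 TRBJ2-2 clonotype of 14 amino acids 0.303% (0.0232% to 0.779%). TRBV13-2 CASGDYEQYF averaged 0.300% (0.0205% to 0.815%), with 0 inserted bases in both of its sequences. TRBV16 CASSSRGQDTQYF averaged 0.246% (0.118% to 0.471%), a TRBV13-2 TRBJ2-1 clonotype of 15 amino acids 0.132% (0.0178% to 0.312%) and TRBV2 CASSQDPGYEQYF 0.113% (0.0184% to 0.193%). The 7 clonotypes from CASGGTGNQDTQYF on had the highest means of the 42 that were shared with no common nucleotide sequence and lay in 3 Treg libraries. The 10 Tcon clonotypes, which had the highest means of 16 such clonotypes in 3 Tcon libraries, averaged from 0.0272% for TRBV3 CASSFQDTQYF to 0.150% for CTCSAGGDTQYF, and the means of the lists cannot be compared because they were chosen from sets of unequal size. Of the 10 clonotypes named for Treg, 4 were among the 2000 largest of at least 1 Tcon library, and of the 10 named for Tcon, 5 were among those of at least 1 Treg library. These counts too come from unequal numbers of libraries and have no share over all clonotypes beside them.

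**Figure D5:**
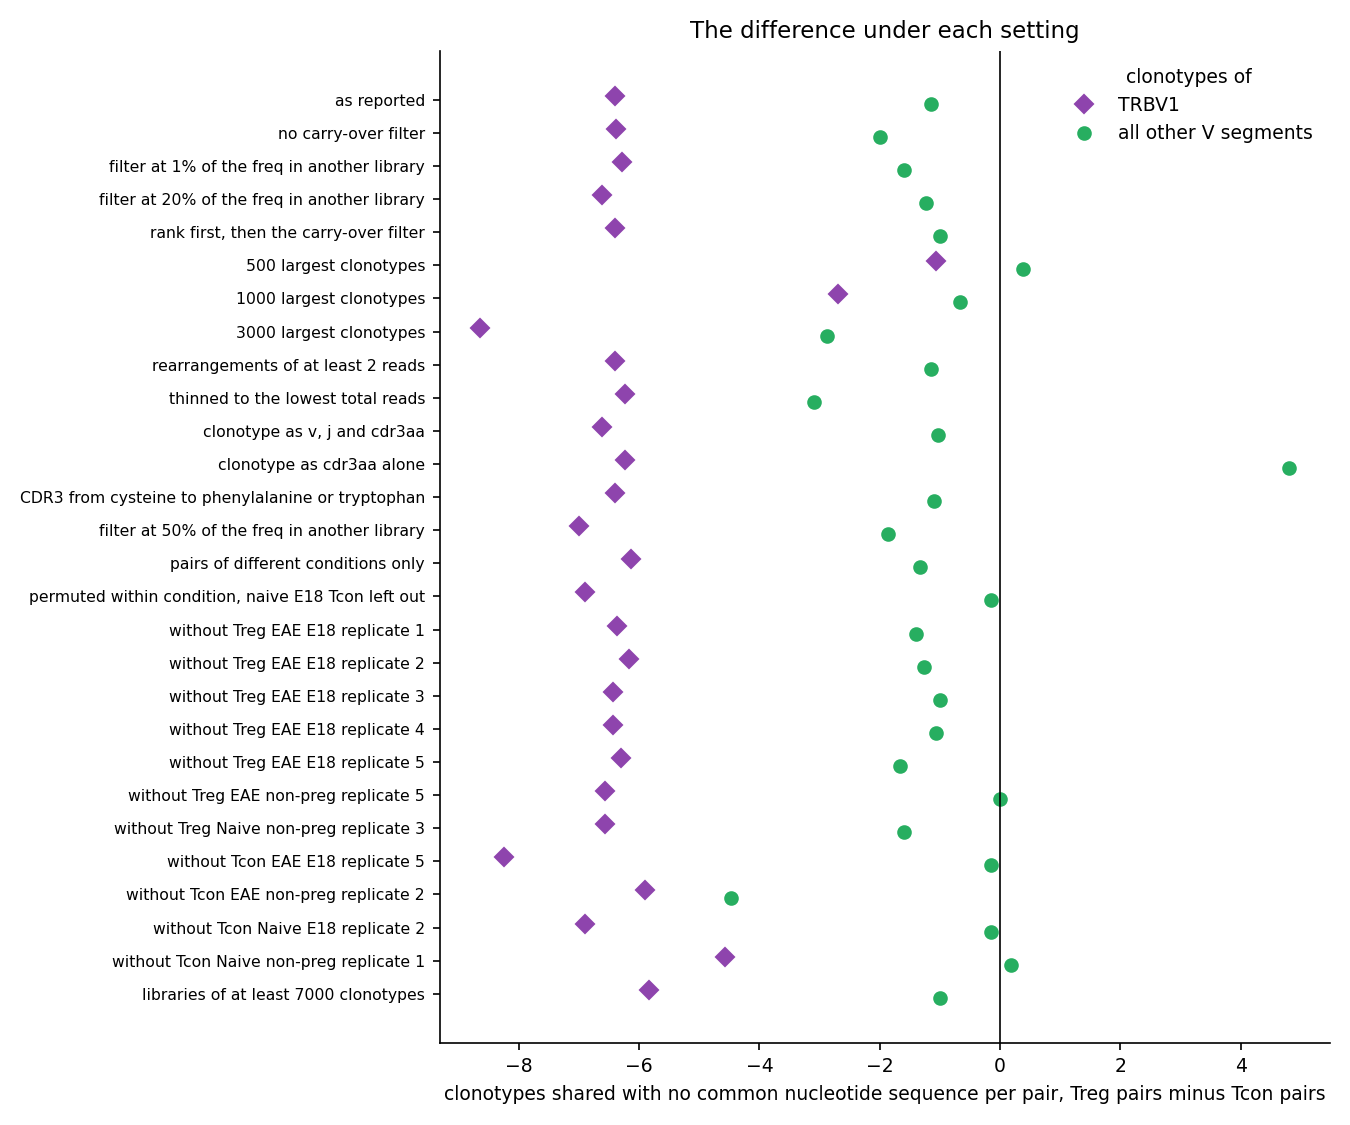
Treg pairs minus Tcon pairs in clonotypes shared with no common nucleotide sequence, under each processing setting and without each library, for TRBV1 (diamonds) and all other V segments together (circles). TRBV1 lies below 0 in every setting, from -8.64 to -1.07, and the others range from -4.48 to 4.81.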

How the data were processed

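Per the labels' protocols, TCRβ rearrangements were amplified by PCR from genomic DNA with primers to the listed mouse V and J genes. The deposited tables give read counts for each rearrangement with no normalization, and the authors' fraction of reads per rearrangement. The submitters' processing notes name mm10; the program that assigned segments is not given in the sources used here. The protocols mention no molecular identifiers.

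A rearrangement (V segment and nucleotide sequence) whose fraction was under 5% of its fraction in another of the 17 libraries was left out, which removed 1.10% to 30.7% of rearrangements in Treg libraries and 0.578% to 3.10% in Tcon libraries. Clonotypes were then ranked by reads. Inserted bases were counted between the V, D and J positions, which the sequences showed to start at 0. Library labels were permuted exactly, two-sided, with Benjamini-Hochberg adjustment over 8 results at 0.05. The members and lists were chosen with earlier results of these data known. Named clonotypes were the 10 in most libraries of each cell type among those shared with no common nucleotide sequence, ties by mean fraction. The 29 segments, TRBV1 with its remainder, and the count per 1000 combinations (3 added results besides the segments) were tested after the values were seen. Counting was tested on simulated libraries. Python 3.11.15, numpy 2.4.6 and pandas 2.3.3 were used. Alternatives covered the filter, the number of clonotypes, depth, the clonotype definition, conditions and each library left out. CNS libraries were left out because some held under 2000 clonotypes.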

Additional observations from a re-analysis of the deposited data

Results flagged for a closer look

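Among 30 sets of values per library, 3 had a library far from the others, and chance alone marks about 1 set in 20 where values are independent. The 3 flagged values are means over pairs, and the libraries of a set have partners in common, so that rate need not hold here. The mean CDR3 length of clonotypes shared with no common nucleotide sequence was 12.77 amino acids in Treg EAE E18 replicate 5, against 13.22 to 13.34 in the other 4 Treg EAE E18 libraries. It was 13.09 in Tcon EAE E18 replicate 5, against 13.28 to 13.32 in the other 3 Tcon libraries. Treg EAE E18 replicate 5 also shared a mean of 15.25 clonotypes with a common nucleotide sequence with Tcon libraries, against 3 to 6.25 in the other 4.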

How the results depend on the processing

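The difference between Treg and Tcon pairs in clonotypes shared with no common nucleotide sequence was negative in all 16 other settings and without each of the 11 libraries (-10.4 to -4.38), but its adjusted p was above 0.05 with the 500 largest (-0.69) and 1000 largest clonotypes (-3.36), with the CDR3 alone as the clonotype (-1.43), over pairs of different conditions (-7.47, where 315 of the assignments leave usable pairs), within conditions (-7.05), in libraries of at least 7000 clonotypes (-6.83) and without 8 of the 11 libraries (4 of them Tcon, where no p of this result alone could pass). All shared clonotypes passed the threshold with the 3000 largest (-15.1), after thinning to the lowest total of 278420 reads (-13.4) and with a 50% filter (-11.1), and without 1 library ranged from -15.1 to -6.76. TRBV1 lost its unadjusted p under 0.05 with at least 7000 clonotypes (-5.83). The 50% filter and the minimum of 7000 clonotypes were chosen after seeing the data. The 8 results were judged by the adjusted p and the 3 added ones by the unadjusted p. All shared clonotypes, Treg minus Tcon, stayed negative in all 16 other settings and without each of the 11 libraries. The other results that did not pass changed sign under some settings. Treg minus mixed turned positive for all shared clonotypes without a filter (1.20) and with the 500 (0.083) and 3000 largest (3.30), was 0 with the CDR3 alone, and ranged from -2.49 to 0.25 without 1 library; with no common sequence it was 0.12, 2.31 under the same sizes, 0.048 after thinning and 2.86 with the CDR3 alone, and -0.80 to 0.64 without 1 library. Treg minus Tcon turned to -4.41 (no filter) and -2.17 (7000 clonotypes) for the percentage with no common sequence (-0.41 to 6.32 without 1 library), to -0.11 over different conditions for the percentage of reads (-0.0049 to 0.455 without 1 library), which was 2.88 without a filter, and to 0.32 (500 largest), 0.10 (1000 largest) and 0.046 (different conditions) for length (-0.20 to 0.14 without 1 library). For inserted bases it was 0.014 without a filter, 0.0073 at a 1% filter, 0.042 with the 500 largest, 0.0077 with loops from cysteine to phenylalanine or tryptophan, 0.069 with the fewest inserted bases and over different conditions, 0.020 within conditions and 0.063 with at least 7000 clonotypes (-0.093 to 0.16 without 1 library). V segments other than TRBV1 gave 0.38 with the 500 largest and 4.81 with the CDR3 alone (-4.48 to 0.19 without 1 library), and the count per 1000 combinations 0.38 with the 500 largest (-0.16 to 0.10 without 1 library); it was not run with the CDR3 alone. With the CDR3 alone, a shared clonotype was put under the V segment of its most read rearrangement in 1 library of the pair, so the split by V segment is loose there. The cause of these changes was not tested. No paired analysis was possible because Treg and Tcon groups share at most 1 replicate number. Counts cover the reads given and not the unknown number of cells.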
